A study of Homo sapiens with 2 samples.

Results

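Amino acid transporter genes were taken here as the listed genes of the solute carrier families SLC1, SLC3, SLC6, SLC7, SLC36, SLC38 and SLC43, chosen by gene symbol and leaving out SLC7A11. The deposited table listed 28038 genes, and 43 of them were members. Of these 43, 26 had 50 or more counts over both libraries and were given a ratio, and 17 did not. The 2 sequenced cultures carry the label OVCAR-3, a long-used cell line from a human ovarian carcinoma. The control culture carried a blank viral vector. The other, called the IGF2BP3 library below, overexpressed IGF2BP3, which binds messenger RNAs that carry the m6A mark. Whether a culture was a clone or a pool is not given in the sources used here. Each group had 1 library, so no difference below has a replicate check, and every one is between these 2 libraries.

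Amino acid carriers of the plasma membrane and the lysosome differ in what they carry and in what drives them. Sodium-driven carriers of the SLC1 and SLC38 families load cells with small neutral amino acids and glutamine. Exchangers of the SLC7 family then trade such amino acids for large neutral or cationic ones, and several of them reach the membrane only when bound to a heavy chain of the SLC3 family. The SLC6 family also carries relatives of amino acids such as taurine, creatine, betaine and GABA. In many tumours the glutamine carrier SLC1A5 and the leucine exchanger SLC7A5 are abundant, and many of these genes are switched on by ATF4, the transcription factor of the amino acid starvation response.

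Depth was 43190215 counts in the control and 48017861 in the IGF2BP3 library. IGF2BP3 itself had 2944 and 6376 counts, a ratio of 1.96 (1.84 to 2.09). The table lists 6 of 7 chosen epithelial markers, and 5 of them stayed under 10 CPM, the counts of a gene relative to a scaled library total, in both libraries, among them CDH1 with 2 counts in each. The sixth, the keratin KRT18, stood at 103 and 102 CPM. Of the 4 mesenchymal markers, VIM stood at 2175 and 2149 CPM, ZEB1 at 57.1 and 58.9 and CDH2 at 13.1 and 12.5, and FN1 was low at 3.02 and 2.36. Of 5 chosen markers of ovarian serous carcinoma the table lists 2. PAX8 had 28 and 32 counts and WFDC2 had 4 and 0. Of 4 chosen markers of packaging, liver and neural cells 3 are listed. LIN28B stood at 38.3 and 40.2 CPM, TUBB3 at 2.95 and 1.94, and ALB had 2 and 0 counts. Whether the cultures are the line that the label names was not tested. A lower level in bulk RNA can come from fewer cells with the transcript or from less of it per cell, which cannot be told apart.

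Levels of different genes are given in FPKM, counts scaled to gene length and library depth, and the ratio of a gene is that of its scaled CPM, overexpression over control. The range after a ratio is its 95% counting interval, computed from halved counts. It covers counting error only. The transporters were dominated by carriers of small neutral amino acids, and nearly the same members were expressed in both libraries. In the control 8 members reached 10 FPKM, 16 lay from 1 to 10 FPKM and 19 were below 1 FPKM, and in the IGF2BP3 library these numbers were 8, 15 and 20, with SLC6A11 as the gene that passed below 1 FPKM. SLC38A1 and SLC38A2 together made up 54.7% of the summed FPKM of all members in the control and 56.8% in the IGF2BP3 library.

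No member was 1.5-fold different in either direction on the scale of CPM plus 1, where 1.66% of all 14157 measured genes were, 1.02% higher and 0.643% lower. The largest higher ratio was that of the taurine carrier SLC6A6. The heavy chain SLC3A2, the large neutral amino acid carriers SLC7A5 and SLC43A1, the creatine carrier SLC6A8 and the GABA carrier SLC6A11 were lower. On the log2 scale 13 measured members lay above 0 and 13 below, against 51.1% and 48.9% of all measured genes, and SLC1A1, SLC38A6 and SLC6A17 were so near 0 that another scaling changed their side. Their median was 0.0001, against 0.0042 for all measured genes. The interval lay on one side of 1-fold in 10 members, or 38.5%, against 26.8% of all measured genes. It lay above 1-fold in 3 members, or 11.5%, against 15.9% of all measured genes, and below 1-fold in 7, or 26.9%, against 10.9%. With intervals from counts as deposited, not halved, these numbers were 5 above and 9 below. The shares of all measured genes given here are from halved counts and were not computed for counts as deposited. Intervals narrow with depth, and the median of counts over both libraries was 3096.5 for measured members and 2031 for all measured genes. No measured member lay within 1 Mb of a measured gene at least 2-fold different. This covers only the 26424 of 28038 listed genes that the gene annotation GENCODE release 29 holds. The authors' deposited table gives log2 fold changes between -1.07, for SLC38A3, and 0.42, for SLC6A6, for the measured members.

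**Figure D1:**
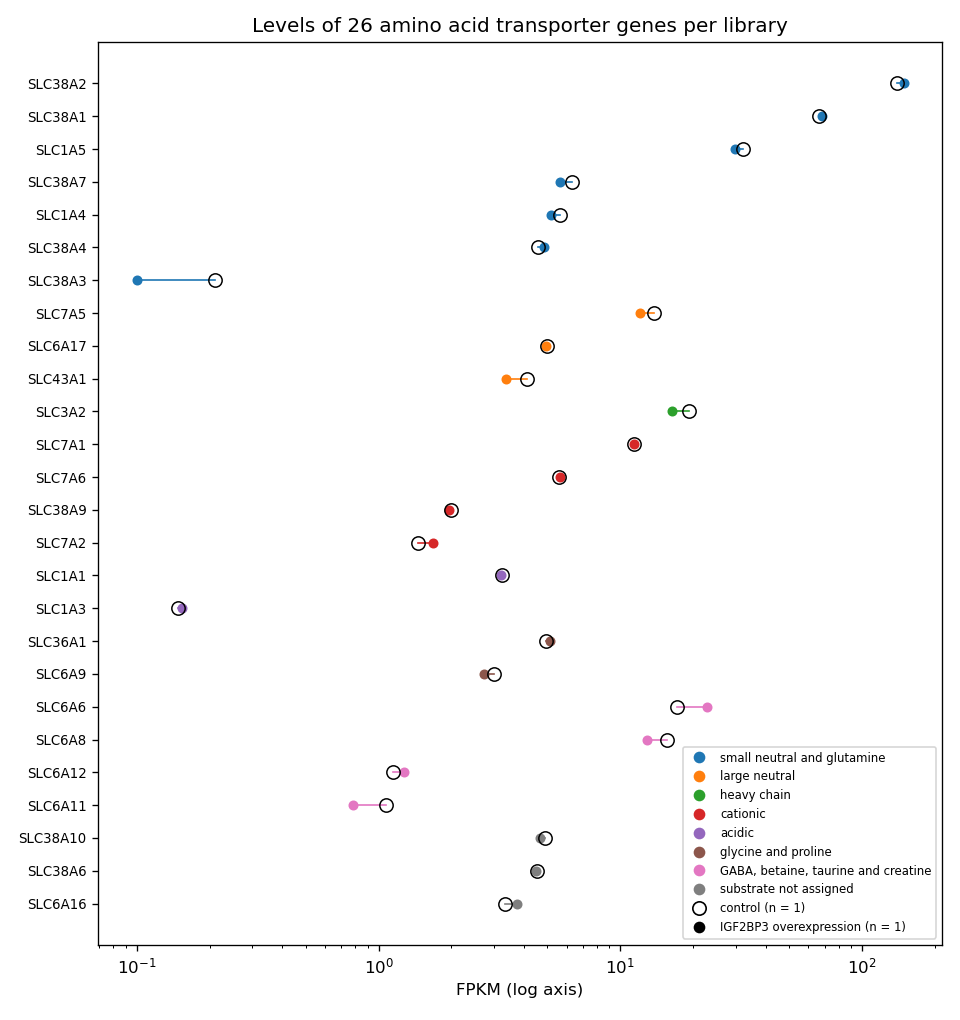
FPKM of the 26 measured members in the control (open rings) and the IGF2BP3 library (filled points), on a log axis, grouped by substrate class; each point is 1 library. SLC38A2 and SLC38A1 stand highest in both libraries, and SLC38A3 and SLC1A3 lowest.

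The sodium-driven carriers SLC38A2 and SLC38A1, both of the system A type, which brings in alanine, serine and glutamine, were the most abundant members. SLC38A2 (ENSG00000134294, GRCh38 chromosome 12, 46358189 to 46372867, minus strand) had 39332 counts and 140 FPKM in the control and 46498 counts and 149 FPKM in the IGF2BP3 library. Its ratio was 1.07 (1.05 to 1.09). SLC38A1 (ENSG00000111371, chromosome 12, 46183063 to 46270017, minus strand) had 28858 and 32935 counts, or 66.7 and 68.5 FPKM, and its ratio was 1.03 (1.01 to 1.06). Both were slightly higher in the IGF2BP3 library, and their log2 ratios of 0.10 and 0.05 were under the 90th percentile of all measured genes, 0.23.

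SLC38A4, the third system A carrier, lay far below both, at 4.56 FPKM in the control and 4.84 in the IGF2BP3 library, from 817 and 964 counts. Its ratio of 1.07 (0.934 to 1.22) had an interval that included 1-fold. The 3 genes are neighbours on chromosome 12, where SLC38A1 and SLC38A2 are 88 kb apart and SLC38A2 and SLC38A4 are 392 kb apart. The antisense gene SLC38A4-AS1 had 531 and 668 counts and SLC38A2-AS1 had 10 and 21.

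The 2 neutral amino acid exchangers of the SLC1 family were on the lower side. SLC1A5, which exchanges glutamine for other small neutral amino acids, had 4648 counts and 32.3 FPKM in the control and 4791 counts and 29.9 FPKM in the IGF2BP3 library, a ratio of 0.933 (0.881 to 0.988). It was the third most abundant member in both libraries. SLC1A4, its close relative that favours serine and alanine, had 1686 and 1721 counts, or 5.62 and 5.16 FPKM, and a ratio of 0.924 (0.839 to 1.02). Its interval just included 1-fold. SLC38A7, which exports glutamine from lysosomes, had 1808 and 1799 counts, or 6.29 and 5.63 FPKM, and its ratio of 0.901 (0.820 to 0.989) was lower with an interval just under 1-fold.

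SLC38A3 and SLC38A5, carriers of the system N type that move glutamine and histidine in liver and brain, were near the limit of detection. SLC38A3 had 36 counts and 0.210 FPKM in the control and 19 counts and 0.0997 FPKM in the IGF2BP3 library. Its ratio of 0.478 was the furthest from 1-fold of any member, but the interval ran from 0.193 to 1.11. It was also the measured member closest to the count minimum, with 55 counts in all, and the nearest below it were SLC7A7 with 45 and SLC38A5, another system N carrier, with 40. SLC38A5 had 17 and 23 counts, SLC38A8 had 0 and 2, and SLC7A10, a small neutral amino acid exchanger of neurons, had 2 and 0.

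Large neutral amino acids such as leucine and phenylalanine enter through SLC7A5, which works only as a pair with the heavy chain SLC3A2. SLC3A2 (ENSG00000168003, chromosome 11, 62856102 to 62888875, plus strand) had 5321 counts and 19.3 FPKM in the control and 5028 counts and 16.4 FPKM in the IGF2BP3 library. Its ratio was 0.855 (0.810 to 0.904), at the 8.07th percentile of all measured genes on the log2 scale. SLC7A5 (ENSG00000103257, chromosome 16, 87830023 to 87869488, minus strand) had 2833 and 2750 counts, or 13.8 and 12.0 FPKM, and a ratio of 0.879 (0.815 to 0.947). Both partners of the pair were therefore lower by similar amounts, and SLC7A5 stood at 0.714 times the FPKM of SLC3A2 in the control and at 0.734 times in the IGF2BP3 library.

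SLC43A1, which carries large neutral amino acids without sodium or exchange, was lower as well. It had 629 counts and 4.13 FPKM in the control and 568 counts and 3.35 FPKM in the IGF2BP3 library, a ratio of 0.817 (0.694 to 0.963). SLC6A17, a neutral amino acid carrier of vesicles that is known from neurons, had 1423 and 1577 counts, or 4.96 and 4.95 FPKM, and a ratio of 1.00 (0.905 to 1.11). In sum, the listed large neutral amino acid carriers held 22.9 FPKM in the control and 20.3 in the IGF2BP3 library. The ratio of these sums was 0.888 (0.839 to 0.941), and that of the members known as light chains of SLC3A2, SLC7A5 to SLC7A8 and SLC7A10, was 0.911 (0.859 to 0.965).

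The other large neutral amino acid carriers were almost silent. SLC7A8, the second leucine exchanger that pairs with SLC3A2, had 4 counts in the control and 0 in the IGF2BP3 library. SLC43A2, the close relative of SLC43A1, had 6 and 8, SLC6A15 had 6 and 0, and SLC6A19, the main neutral amino acid carrier of gut and kidney, had 0 and 1. Of each close pair of paralogs, SLC7A5 and SLC7A8 or SLC43A1 and SLC43A2, the same member was the expressed one in both libraries.

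Cationic amino acid carriers, which bring in arginine and lysine, differed little. SLC7A1, the widely expressed arginine carrier, had 3789 counts and 11.4 FPKM in the control and 4222 counts and 11.4 FPKM in the IGF2BP3 library, a ratio of 1.01 (0.948 to 1.07). SLC7A2, its relative known for inducible arginine uptake, had 499 and 638 counts, or 1.46 and 1.68 FPKM, and a ratio of 1.16 (0.978 to 1.37). The interval of SLC7A2 included 1-fold. SLC7A1 stood at 7.81 times the FPKM of SLC7A2 in the control and at 6.80 times in the IGF2BP3 library.

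SLC7A6, which pairs with SLC3A2 and trades cationic for neutral amino acids, had 1829 and 2056 counts, or 5.58 and 5.64 FPKM, and a ratio of 1.02 (0.930 to 1.11). Of its annotated exon bases 44.4% overlap SLC7A6OS on the opposite strand, which had 272 and 324 counts, and whether the counting used strand is not given in the sources used here. SLC7A7, which has the same exchange activity, had 24 and 21 counts. SLC38A9, the lysosomal arginine carrier that reports arginine to mTORC1, had 758 and 828 counts, or 1.99 and 1.95 FPKM, with a ratio of 0.989 (0.858 to 1.14). SLC7A9, the cystine and cationic amino acid exchanger of kidney, had 2 and 1 counts, and its heavy chain SLC3A1 had 2 and 4.

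Of the glutamate and aspartate carriers, SLC1A1 was the expressed one. It had 556 counts and 3.24 FPKM in the control and 613 counts and 3.21 FPKM in the IGF2BP3 library, a ratio of 0.998 (0.846 to 1.18). SLC1A3, best known from astrocytes, had 136 and 156 counts, or 0.148 and 0.153 FPKM, and a ratio of 1.04 (0.740 to 1.46). Its FPKM rests on a gene length of 21227 bases, computed from count and FPKM, where the exons annotated in GENCODE release 29 cover 6265. SLC1A6, a carrier of cerebellar neurons, had 0 and 2 counts.

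Glycine and proline carriers did not differ beyond their counting intervals. SLC36A1, which moves glycine, proline and alanine together with protons across lysosomal and plasma membranes, had 1480 and 1713 counts, or 4.92 and 5.12 FPKM, and a ratio of 1.05 (0.948 to 1.16). SLC6A9, the glycine carrier, had 684 and 685 counts, or 3.02 and 2.72 FPKM, and a ratio of 0.907 (0.778 to 1.06). SLC6A20, which carries proline in gut and kidney, had 2 counts in each library. All 8 measured cationic, acidic, glycine and proline carriers had intervals that included 1-fold.

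**Figure D2:**
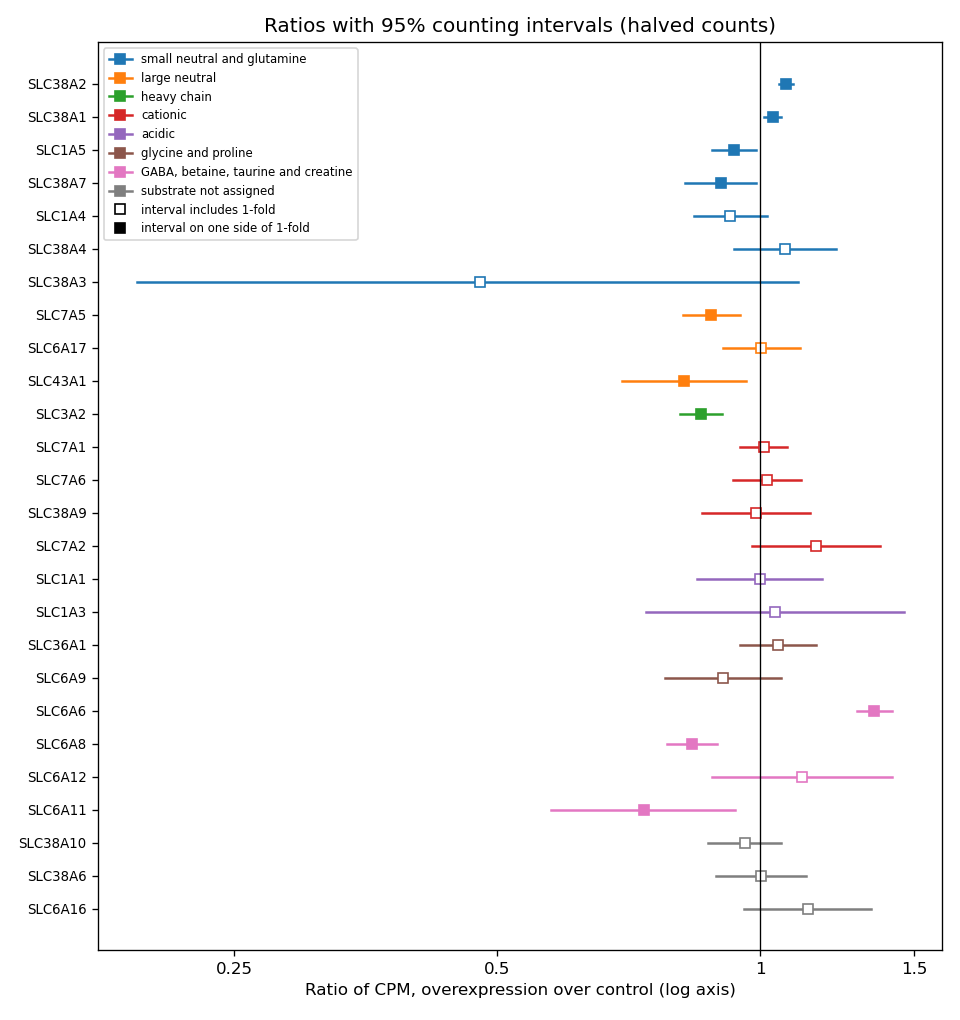
Ratio of scaled CPM, overexpression over control, for the 26 measured members on a log axis, with 95% counting intervals from halved counts; filled squares mark intervals on one side of 1-fold. SLC6A6 stands alone on the right at 1.35, and the intervals of 7 members lie to the left of 1-fold.

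On the log2 scale of CPM plus 1 the widest spread was among carriers of GABA, betaine, taurine and creatine. By plain ratio it was among small neutral amino acid and glutamine carriers, at 0.478 to 1.07, with SLC38A3 the lowest. SLC6A6 (ENSG00000131389, chromosome 3, 14402576 to 14489349, plus strand), which takes up taurine and is known to be induced by hypertonic stress, had 6094 counts and 17.1 FPKM in the control and 9092 counts and 22.9 FPKM in the IGF2BP3 library. Its ratio was 1.35 (1.29 to 1.41), at the 97.8th percentile of all measured genes on the log2 scale. SLC6A8 (ENSG00000130821, chromosome X, 153688099 to 153696593, plus strand), which takes up creatine, had 3836 and 3541 counts, or 15.6 and 12.9 FPKM, and a ratio of 0.836 (0.783 to 0.892). These 2 carriers were near each other in level in the control, where SLC6A6 stood at 1.10 times the FPKM of SLC6A8, and further apart in the IGF2BP3 library, at 1.77 times.

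The value of SLC6A8 is uncertain, since 19.8% of its 31-base words also occur in other annotated genes, 16.5% in the pseudogene SLC6A10P. The table lists 2 genes named SLC6A10P, both lower in the IGF2BP3 library. The one that the 16.5% belongs to had 34 and 15 counts. The other had 234 and 133, and no share of words is given for it. No other measured member shared more than 6.11% of its words with other genes, the value for SLC7A5. SLC6A6 shared 0.909%.

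SLC6A11, a GABA carrier, had 309 counts and 1.07 FPKM in the control and 251 counts and 0.783 FPKM in the IGF2BP3 library, a ratio of 0.735 (0.576 to 0.937). SLC6A12, which carries betaine and GABA and like SLC6A6 is known from hypertonic stress, had 263 and 324 counts, or 1.15 and 1.27 FPKM, and a ratio of 1.12 (0.881 to 1.41). Its interval included 1-fold. SLC6A13, which lies 6 kb from SLC6A12 on chromosome 12 and carries GABA and taurine, had 11 and 9 counts. The only listed monoamine carrier, SLC6A4 for serotonin, had 17 and 10 counts.

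Members without an assigned substrate class were SLC38A6, SLC38A10 and SLC6A16 among the measured ones. SLC38A6 had 1076 and 1191 counts, or 4.51 and 4.49 FPKM, and a ratio of 1.00 (0.890 to 1.13). SLC38A10 had 1665 and 1765 counts, or 4.88 and 4.65 FPKM, and a ratio of 0.960 (0.872 to 1.06). SLC6A16, an orphan of the SLC6 family, had 517 and 647 counts, or 3.34 and 3.75 FPKM, and a ratio of 1.13 (0.959 to 1.34). SLC36A3 and SLC43A3 had 2 counts in each library, and SLC38A11 had 2 and 0. Over all 17 members below the minimum, counts over both libraries ran from 1 to 45, 10 of them had at most 5, and the highest FPKM in either library was 0.119.

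**Figure D3:**
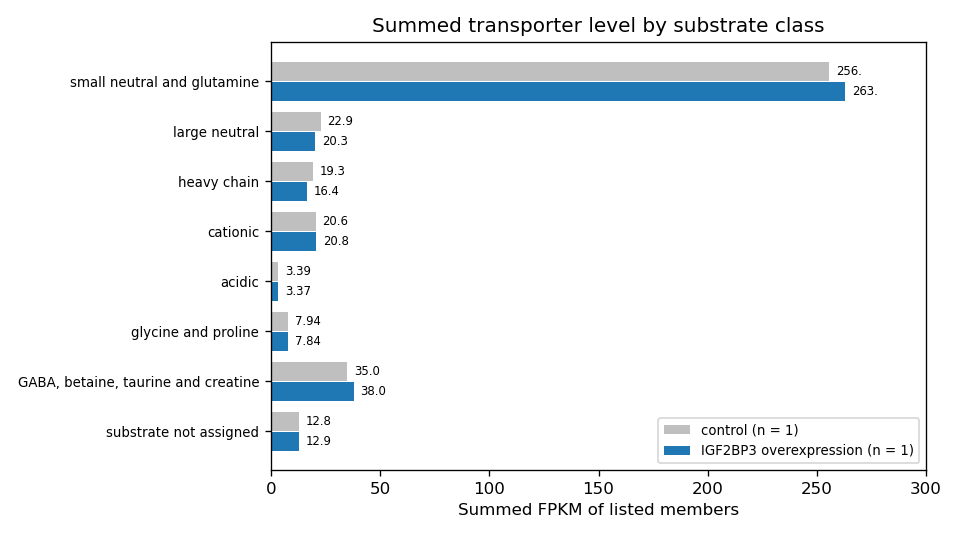
Summed FPKM of the listed members of each substrate class in the control and the IGF2BP3 library, with the sum written beside each bar; the monoamine class, with a single gene below the count minimum, is not drawn. Small neutral amino acid and glutamine carriers held 256 and 263 FPKM, several times the sum of any other class.

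Summed by class, the carriers of small neutral amino acids and glutamine held 67.7% of all member FPKM in the control and 68.7% in the IGF2BP3 library, with a ratio of 1.03 (1.01 to 1.04) between the sums. Without SLC38A2, the most abundant gene of the class, that ratio was 0.987. The heavy chains, in effect SLC3A2 alone, were at 0.850 (0.805 to 0.898). Carriers of GABA, betaine, taurine and creatine were at 1.09 (1.05 to 1.13), and at 0.842 without SLC6A6, so this class sum and its direction rested on 1 gene. Cationic carriers were at 1.01 (0.966 to 1.06), acidic at 0.995 (0.852 to 1.16) and glycine and proline carriers at 0.988 (0.909 to 1.07). The acidic and the glycine and proline sums were above 1 on the scale of TPM, where the FPKM total of both libraries is set equal, at 1.04 and 1.03, so they have no fixed direction.

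Start sites of the measured members were searched for the core of the amino acid response element, the site through which ATF4 acts, written TGATGNAAN and searched on both strands; no other motif was searched. The RefSeq windows used run from 250 bases before to 50 bases after an annotated start on GRCh38.p14. They covered 22 of the 26 measured members with 35 windows, and SLC38A3, SLC6A12, SLC6A6 and SLC7A2 were not matched. A match lay in 6 windows (17.1%), 1 each of SLC1A3, SLC1A4, SLC1A5, SLC38A1, SLC3A2 and SLC7A1, against 1.90% of 14755 windows of measured genes and 3.61% of all 35116 windows. Of these 6 genes SLC38A1 had an interval above 1-fold, SLC1A5 and SLC3A2 below it, and the others an interval that included it. A match of letters is a description of the sequence, and whether any factor bound there was not measured.

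The windows of the 3 genes with both a match and an interval on one side of 1-fold are shown 5′ to 3′ on the gene's strand, with the matched letters in capitals. That of SLC3A2 (chr11:62881449-62881748, plus strand) is 1 of 3 windows of the gene and has the match on the opposite strand, beginning 36 bases after the start. That of SLC1A5 (chr19:46784765-46785064, minus strand) is also 1 of 3, and its match begins 97 bases before the start. That of SLC38A1 (chr12:46266467-46266766, minus strand) is 1 of 2, and its match begins 4 bases before the start. Each of these windows lies inside the annotated span of its gene, and the other windows of the same genes had no match. Which start these cells used was not measured.
SLC3A2: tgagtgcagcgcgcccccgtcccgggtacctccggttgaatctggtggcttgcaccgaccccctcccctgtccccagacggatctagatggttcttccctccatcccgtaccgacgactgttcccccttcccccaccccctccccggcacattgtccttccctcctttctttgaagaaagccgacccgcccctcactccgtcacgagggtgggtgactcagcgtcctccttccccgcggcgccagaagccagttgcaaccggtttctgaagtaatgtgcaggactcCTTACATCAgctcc
SLC1A5: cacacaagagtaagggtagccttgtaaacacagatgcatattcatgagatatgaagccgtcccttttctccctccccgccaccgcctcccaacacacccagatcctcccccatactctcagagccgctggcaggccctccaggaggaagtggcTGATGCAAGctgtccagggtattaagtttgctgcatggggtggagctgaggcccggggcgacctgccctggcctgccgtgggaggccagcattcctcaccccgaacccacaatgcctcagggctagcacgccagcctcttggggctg
SLC38A1: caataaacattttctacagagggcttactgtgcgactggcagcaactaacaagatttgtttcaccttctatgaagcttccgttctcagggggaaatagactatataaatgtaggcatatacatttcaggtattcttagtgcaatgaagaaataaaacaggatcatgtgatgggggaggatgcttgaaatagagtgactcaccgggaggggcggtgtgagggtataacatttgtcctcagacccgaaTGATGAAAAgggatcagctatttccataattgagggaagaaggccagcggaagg

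Other genes that move, make, use or sense amino acids also differed mostly by small amounts, and those of the starvation response differed the most as a list. Of 10 measured genes of that response 8 lay below 0 and 2 above on the log2 scale, and their median was -0.17. The interval lay below 1-fold in 7 and above in 1. Over all measured genes 48.9% lay below 0 and 51.1% above, and the interval lay below 1-fold in 10.9% and above in 15.9%. These shares apply to the lists that follow as well. ATF4 went from 76.2 to 67.6 FPKM, a ratio of 0.893 (0.855 to 0.931). Furthest from 0 were CHAC1, which degrades glutathione, at 0.453 (0.300 to 0.673), the stress factor DDIT3 at 0.669 (0.571 to 0.783), CEBPB at 0.729 (0.590 to 0.899) and ATF5 at 0.853 (0.757 to 0.961). EIF2AK4, the kinase that senses uncharged tRNA, was on the other side at 1.11 (1.07 to 1.16). So was ASNS, counted in the next list as well, at 1.15 (0.619 to 2.16), with an interval that included 1-fold. The part of these genes in the transporter ratios was not tested.

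Enzymes of serine, glycine, asparagine and proline synthesis had a median of -0.06 over 9 measured genes, with 3 above 0 and 6 below. Their intervals lay above 1-fold in 1 and below it in 4. SHMT2, the mitochondrial serine hydroxymethyltransferase, was at 0.857 (0.817 to 0.900), PHGDH, the first enzyme of serine synthesis, at 0.908 (0.855 to 0.965) and PSAT1, the next, at 0.916 (0.886 to 0.947). PYCR3, which reduces pyrroline carboxylate to proline, was the single gene of the list at least 1.5-fold different, from 76 counts in the control to 4 in the IGF2BP3 library, a ratio of 0.0476 (0.00557 to 0.184). Asparagine synthetase, ASNS, had 41 and 52 counts and 0.194 and 0.221 FPKM, far below ATF4. Glutamine and glutamate enzymes had a median of 0.02 over 10 genes, with 6 above 0 and 4 below. Their intervals lay above 1-fold in 3 and below it in 2. This list was led by GLUL, the glutamine synthetase, at 0.852 (0.740 to 0.980) and GFPT1, which passes glutamine nitrogen to hexosamines, at 1.16 (1.11 to 1.22). GPT2 was at 0.934 (0.848 to 1.03) and GLS2 at 1.14 (0.578 to 2.30).

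Genes of branched-chain amino acid breakdown had a median of 0.11 over 5 measured genes, with 4 above 0 and 1 below. Their intervals lay above 1-fold in 1 and below it in 0. BCKDHB stood at 1.20 (1.01 to 1.42), DBT at 1.10 (0.995 to 1.22), BCAT1 at 1.08 (0.983 to 1.19) and BCKDK at 0.949 (0.877 to 1.03). Amino acid sensing by mTORC1, the growth kinase complex, had a median of -0.06 over 32 genes, with 12 above 0 and 20 below. Intervals of this list lay above 1-fold in 3 genes and below it in 8. NPRL3 belongs to the GATOR1 complex and ITFG2 and KICS2 to the KICSTOR complex, which hold mTORC1 in check. The folliculin gene FLCN stood at 0.797 (0.719 to 0.882), NPRL3 at 0.812 (0.735 to 0.898), ITFG2 at 0.815 (0.680 to 0.976) and KICS2 at 1.24 (1.00 to 1.55). Amino acid carriers of other families had a median of -0.05 over 16 genes, with 7 above 0 and 9 below. Their intervals lay above 1-fold in 1 and below it in 4. The mitochondrial glutamate carrier SLC25A18 stood at 1.40 (0.949 to 2.09), the vesicular glutamate carrier SLC17A7 at 0.789 (0.655 to 0.949), the lysosomal carriers SLC66A1, of cationic amino acids, at 0.874 (0.770 to 0.992) and SLC15A4, of histidine, at 0.881 (0.799 to 0.972).

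**Figure D4:**
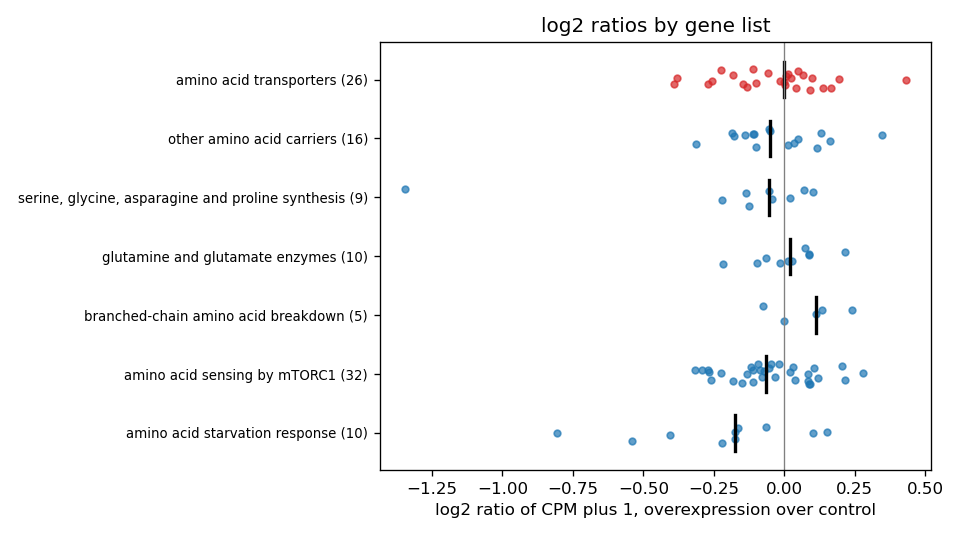
Difference in log2 CPM plus 1, IGF2BP3 library minus control, for each measured gene of the transporters (red) and of 6 lists of amino acid metabolism and sensing genes (blue), with the number of genes in brackets and the median as a black bar; points are shifted at random along the vertical axis. The starvation response has the lowest median, -0.17, and the point furthest left is PYCR3.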

How the data were processed

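Per the labels, poly(A) RNA libraries with dUTP strand marking were made from 1 culture per group. The table that the authors deposited holds raw counts, FPKM and a log2 fold change per gene, as its headers name them. The submitters' processing notes name GRCh38 as the build. No aligner, counter or annotation is given in the sources used here. Counts were scaled over the whole table by TMM (edgeR 4.0.16, R 4.3.3). A ratio was computed where the 2 counts summed to 50 or more, with a 95% Clopper-Pearson interval from counts divided by 2, since 64.1% and 63.3% of counts from 1 to 20 were even, a surplus that counting both mates of a pair would give. Intervals were tested on simulated data. Every simulated count was even, unlike the deposited ones, so that test cannot show how well the intervals hold here. The intervals cover counting error only, since reads without molecular identifiers are not independent molecules. Intervals of summed FPKM used the same halved counts and a normal approximation. A count of 3 equals 0.0692 and 0.0627 CPM. No p-value was computed.

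Members and lists were chosen with earlier results of these data known, and substrate classes were assigned from general knowledge after the counts were seen. Every measured member is named, and the 4 genes furthest from 0 of each other list. ATF4, EIF2AK4 and ASNS were named after their values were seen. Positions, overlaps and 31-base words came from GENCODE release 29, which held all 43 members and 26424 of all 28038 listed genes. Alternatives were library totals, DESeq2 1.42.0 size factors, FPKM plus 1, a lower or higher pseudocount, count minimum or fold threshold, and intervals from counts as deposited. Python 3.11.15, scipy 1.17.1 and matplotlib 3.10.9 were used.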

Additional observations from a re-analysis of the deposited data

How the results depend on the processing

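No paired analysis was possible because each group had 1 library, and no library could be left out. Alternatives for single members were scaling by library totals or DESeq2 size factors, FPKM plus 1 and pseudocounts of 0.1 or 5 CPM. These left the log2 ratio of each of the 26 measured members within its counting interval. The scale of TPM, below, was applied to class sums only and not to single members. The count of members at least 1.5-fold different was 0, and was 1 with a pseudocount of 0.1 CPM, where SLC38A3 passed. With the lower fold threshold 3 of the 26 measured members passed, SLC38A3, SLC6A11 and SLC6A6, and 8.15% of all measured genes did. Intervals from counts as deposited lay above 1-fold in 5 members instead of 3, adding SLC6A16 and SLC7A2. They lay below it in 9 instead of 7, adding SLC1A4 and SLC38A3. The shares of all measured genes were not computed for these intervals. The ratio of summed FPKM turned from 1.09 to 0.842 for GABA, betaine, taurine and creatine carriers without SLC6A6, and from 1.03 to 0.987 for small neutral amino acid and glutamine carriers without SLC38A2. It was 0.901 instead of 0.988 for glycine and proline carriers without SLC36A1. On the scale of TPM, which sets the FPKM total of both libraries equal, the first 2 ratios were 1.13 and 1.07, and the acidic and the glycine and proline sums passed from 0.995 and 0.988 to 1.04 and 1.03. The acidic sum was at 1.00 with FPKM rescaled by TMM and at 1.07 without SLC1A1. The median log2 ratio of the transporters ran from -0.0087 with library totals to 0.0050 with DESeq2 size factors, and SLC1A1, SLC38A6 and SLC6A17, all close to 0, changed side under other scaling. The other lists kept the sign of their medians, and the median of the branched-chain list was 0.056 instead of 0.11 without a count minimum. Depth limits SLC38A3 and the 17 members below the minimum.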
